A study of Mus musculus with 8 samples.

Results

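DNA methylation writers and erasers were examined as 8 genes among the 54838 listed in RNA-seq counts of *iMLL-AF9* cells, mouse leukemic cells given IOX5 or DMSO. The genes were chosen by name, as *Dnmt1*, *Dnmt3a*, *Dnmt3b* and *Uhrf1*, which place or maintain methyl groups on cytosine, and *Tet1*, *Tet2*, *Tet3* and *Tdg*, which take part in their removal. The 8 genes and the gene lists below were chosen with earlier results of these data known. Their counts beside the shares of all genes are therefore description. All 8 were found by their Ensembl identifiers, and all 8 were among the 12405 genes that passed the filter on low counts. The cells carry a doxycycline-inducible allele of the *MLL-AF9* fusion oncogene on the C57BL/6 background. The labels give bone marrow, leukemic stem cells and a WT genotype, while the text on the whole data set calls the cells preleukemic. Both groups shared this background and differed by treatment, which was IOX5, an inhibitor of the HIF prolyl hydroxylases (PHDs), in 4 samples and its vehicle DMSO in 4 samples, numbered 1 to 4 in each group. Dose, duration, and whether the numbers stand for separate mice, clones or cultures were not given in the sources used here, so the p-values measure the spread between these samples, which may be technical. The depth was 11351507 to 14116054 reads on genes per sample.

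DNA methyltransferases transfer a methyl group from S-adenosylmethionine to cytosine in CpG dinucleotides. DNMT3A and DNMT3B set new marks, and DNMT1, brought to hemimethylated DNA behind the replication fork by UHRF1, copies them to the new strand. TET enzymes oxidize 5-methylcytosine stepwise, and TDG excises the last oxidation products so that base excision repair can restore an unmodified cytosine. TETs, like the PHDs, are oxygenases that need iron and 2-oxoglutarate, and *DNMT3A* and *TET2* are among the genes most often mutated in human acute myeloid leukemia. The counts measure RNA only; neither DNA methylation nor enzyme activity was measured.

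The labeled cell type was first set against marker genes. *Ptprc*, the common leukocyte antigen, was the most abundant of 8 progenitor and leukemia genes, with a mean of 449.5 CPM in DMSO and 439.4 CPM in IOX5, and none of the 8 was at 0 reads. The 8 summed to 1303 to 1432 CPM in DMSO and 1450 to 1566 CPM in IOX5, without overlap, with a median log2 fold change of 0.20 and 5 of 8 above 0. Of these 8, 0 were called by edgeR, *Myb* was higher at an unadjusted p under 0.05, and 4 (*Kit*, *Cd34*, *Flt3* and *Myb*) were higher in a fit blocked on the replicate number, as were 11.2% of all genes tested. CPM, the normalized count, is the read count of a gene scaled to a common library size with TMM factors. *Ms4a1* of B cells, *Cd4* and *Cd8a* of T cells, *Gp1bb* of megakaryocytes and *Col1a2* of stroma were at 0 reads in every sample. The samples numbered 3 and 4 stood apart from those numbered 1 and 2. *Cd34*, a progenitor antigen, measured 26.0, 23.2, 133 and 153 CPM in DMSO samples 1 to 4 and 40.4, 35.4, 225 and 231 CPM in IOX5 samples 1 to 4. The chi-square per degree of freedom between DMSO samples 3 and 4 was 2.17, against 14.3 to 22.8 for the other DMSO pairs and 9.28 to 41.1 for the IOX5 pairs. No pair of replicates differed by as little as sampling noise, for which the value is near 1. A value above 1 does not show that DMSO samples 3 and 4 are independent. Each was counted as a sample of its own, and no fit merged them, so p-values may be too small. Because samples grouped by number, a fit blocked on the replicate number was also run. It stands beside the results for the 8 genes and the gene lists below wherever it changed a call.

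IOX5-treated cells had less *Uhrf1* RNA than DMSO-treated cells, and *Uhrf1* was the gene of the 8 that passed the edgeR test without a block. In *Dnmt1*, *Tet2* and *Tdg* the IOX5 samples also lay below all DMSO samples, without passing that test. DESeq2, which also ignores the replicate numbers, and the block fit called them lower, as given below. *Dnmt3a* was the gene with a higher mean in IOX5, by a small amount that the test did not resolve. By edgeR at an adjusted p under 0.05, 1 of the 8 genes was called lower, where 1.25% of all genes tested were, and 0 of the 8 were called higher, where 0.774% were. At an unadjusted p under 0.05, 4 of the 8 were lower, beside 11.2% of all genes, and 0 higher, beside 8.98%. With the replicate block, 4 of the 8 were called lower (*Uhrf1*, *Tet2*, *Tdg* and *Dnmt1*), beside 9.43% of all genes, and 0 were called higher, beside 11.2%. DESeq2 called the same 4 genes lower, beside 4.85% of all genes, and none higher, beside 3.94%. Limma voom with sample weights called *Uhrf1*, *Tet2* and *Tdg* lower, beside 4.92%, and none higher, beside 3.43%. In 4 of the 8 genes the groups did not overlap, with IOX5 lower, which held for 8.3% of all genes, and in none was IOX5 higher without overlap, which held for 5.98%. Of the 8, 6 of the 8 were lower in IOX5 within 4 of 4 replicate numbers, beside 19.8% of all genes. The median log2 fold change of the 8 genes was -0.24, beside 0.017 over all genes tested.

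**Figure D1:**
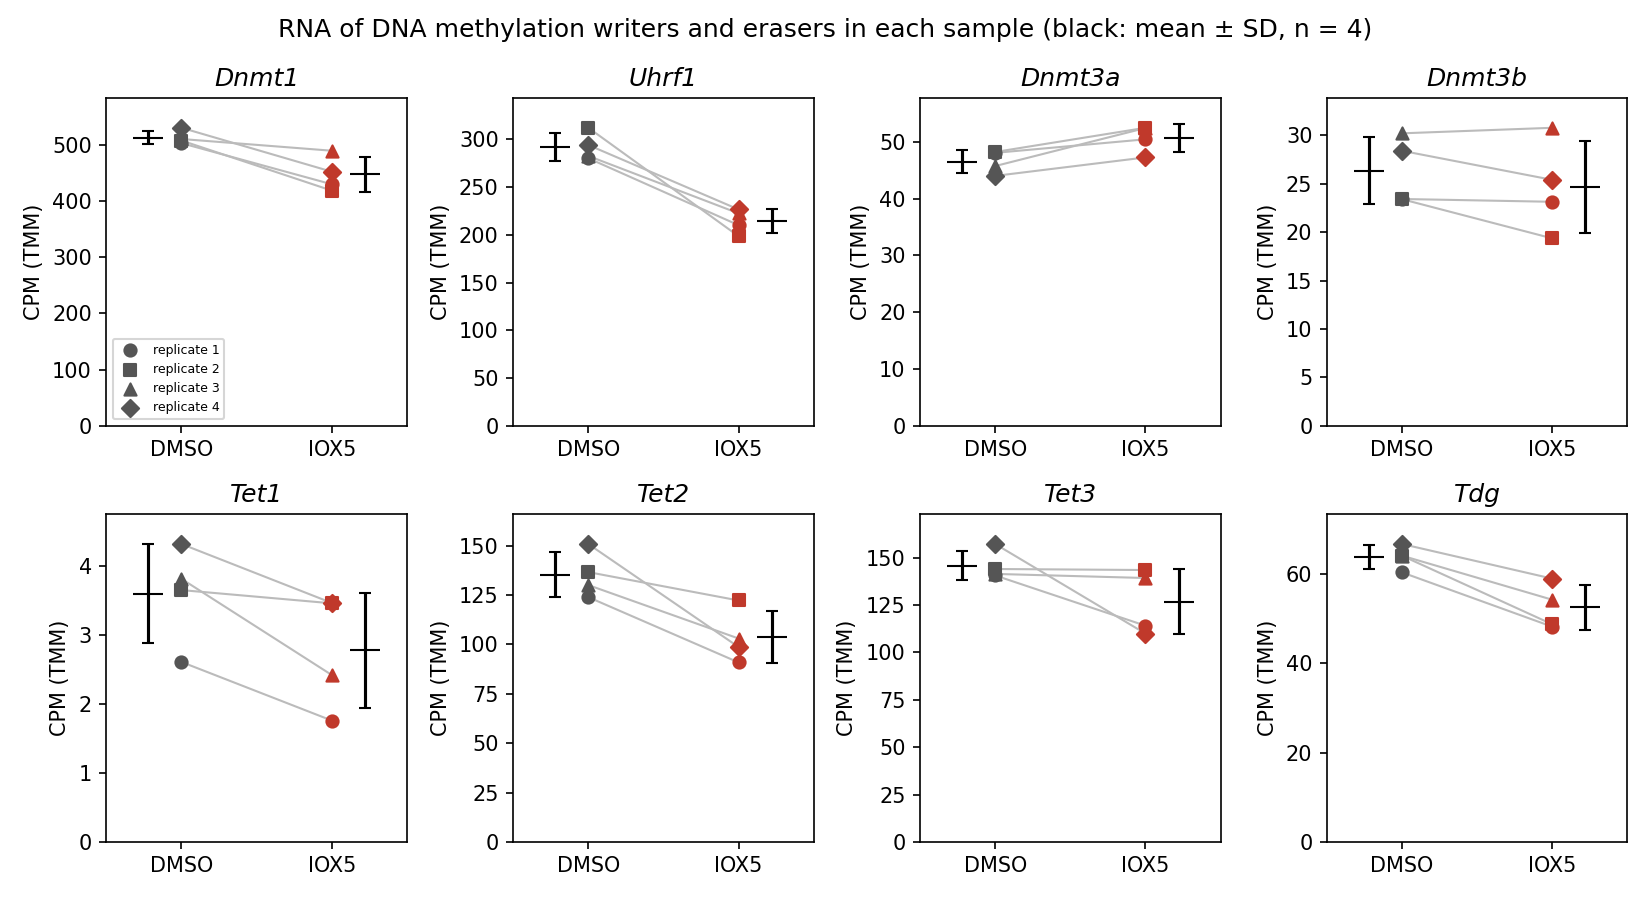
CPM (vertical axes, from 0) of each of the 8 genes in the DMSO samples (gray) and the IOX5 samples (red). Marker shapes give the replicate number, gray lines join samples with the same number, and black bars give the mean and SD of 4 samples. The groups do not overlap for *Dnmt1*, *Uhrf1*, *Tet2* and *Tdg*, and the values of *Dnmt3a*, *Dnmt3b*, *Tet1* and *Tet3* do.

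Levels differed widely among the 8 genes. Per length, as RPKM over the merged exons of each gene, *Dnmt1* was highest in DMSO with 69.5 ± 1.64 RPKM (SD, n = 4), and *Uhrf1* followed with 68.6 ± 3.42 RPKM. The samples of these neighbors in the order overlapped. *Tdg* came next with a DMSO mean of 11.9 RPKM, followed by *Tet3* with 8.73 RPKM and *Tet2* with 8.03 RPKM, whose samples overlapped. *Dnmt3b* measured 5.16 RPKM and *Dnmt3a* 2.79 RPKM, without overlap between them. *Tet1* was last, with 0.233 RPKM. By merged exons, the order of the 8 genes was the same in DMSO and IOX5. Dividing by the longest annotated transcript put *Tet2* (14.7 RPKM) before *Tet3* (13.4 RPKM) in DMSO, while in IOX5 *Tet3* (11.6 RPKM) stayed before *Tet2* (11.3 RPKM). The positions of the other genes did not change.

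**Figure D2:**
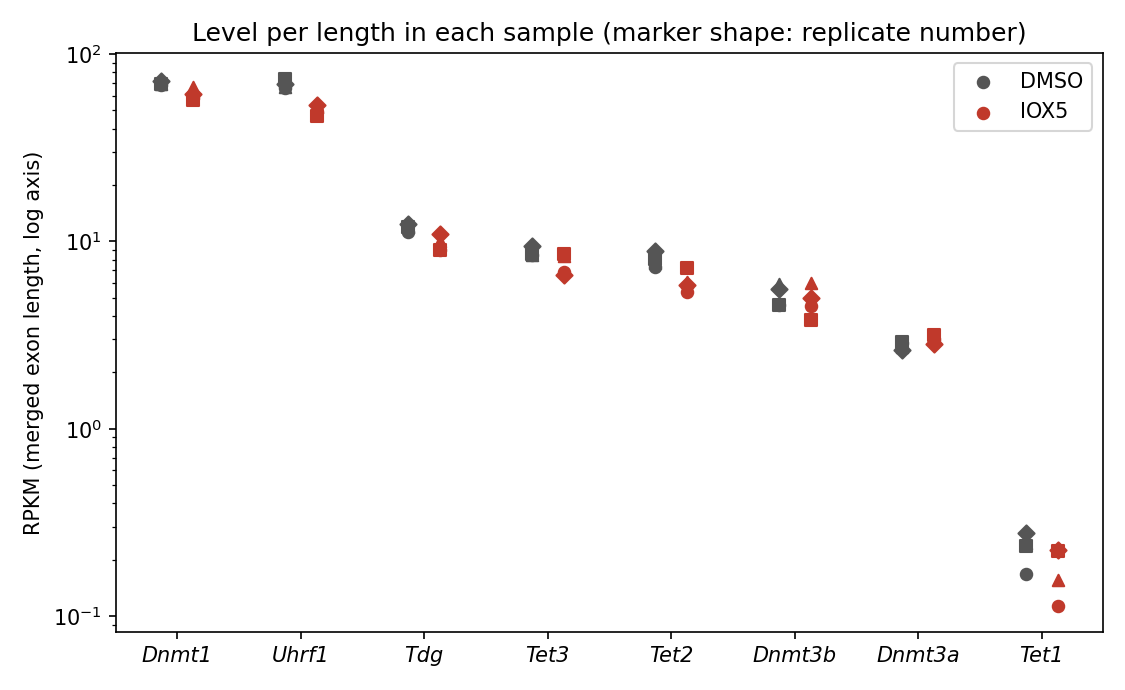
Level per length (RPKM, log axis) of each gene in every DMSO sample (gray) and IOX5 sample (red), ordered by the DMSO mean; marker shapes give the replicate number. *Dnmt1* and *Uhrf1* stand at the top, near 69.5 and 68.6 RPKM in DMSO, and *Tet1* stands at the bottom, near 0.233 RPKM.

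Within the families, *Dnmt1* took 88.9% to 90.2% of the summed RPKM of the 3 methyltransferase genes in the DMSO samples and 87.8% to 89.1% in the IOX5 samples. Among the TET genes, *Tet2* took 46.1% to 48.0% of the summed RPKM in DMSO and 41.8% to 46.2% in IOX5, and *Tet3* took 50.5% to 52.8% in DMSO and 52.0% to 57.1% in IOX5. *Tet1* took between 0.924% and 1.77% in all samples. The shares of *Tet2* and *Tet3* depend on the length used, as their order does.

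*Uhrf1*, which encodes the reader of hemimethylated CpG that recruits DNMT1 (ENSMUSG00000001228; GRCm38 chromosome 17, 56303321 to 56323486, plus strand), showed the clearest difference. DMSO samples 1 to 4 measured 280.3, 312.3, 282.7 and 294.2 CPM, and IOX5 samples 1 to 4 measured 210.1, 198.6, 222.5 and 226.6 CPM. Every IOX5 sample was below every DMSO sample, and the largest gap within a number was in number 2. On the log2 scale the fold change was -0.45 (SE 0.063, 95% interval -0.59 to -0.30), a decrease of 26.6%, with an adjusted p of 0.0209 by edgeR. By unadjusted p it stood at rank 37 of all genes tested and at rank 23 of those that were lower. With the replicate block the adjusted p of edgeR was 0.000873, and with DESeq2 it was 6.28e-08. The difference within the 4 replicate numbers was -0.42, -0.65, -0.35 and -0.38 in log2 CPM. Without the block, the call was lost when any of 6 samples was left out. The adjusted p by edgeR was 0.0542, 0.0609, 0.0767 and 0.103 without DMSO sample 1, 2, 3 or 4, and 0.0553 and 0.0646 without IOX5 sample 1 or 3. It was 0.0376 without IOX5 sample 2 and 0.0251 without IOX5 sample 4. In the block fits that each left out 1 number, *Uhrf1* was called in 4 of 4, with an adjusted p of at most 0.00773 by edgeR.

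*Dnmt1*, the maintenance methyltransferase (ENSMUSG00000004099; chromosome 9, 20907209 to 20959888, minus strand), was lower by a smaller amount. It measured 503.0, 507.6, 510.4 and 530.4 CPM in DMSO samples 1 to 4 and 429.8, 418.5, 489.5 and 452.2 CPM in IOX5 samples 1 to 4. The groups did not overlap, but IOX5 sample 3 came close to the lowest DMSO sample. Its log2 fold change was -0.20 (SE 0.062, 95% interval -0.34 to -0.056), with an adjusted p of 0.127 by edgeR, 0.0453 by edgeR with the replicate block and 0.0462 by DESeq2. Limma voom did not call *Dnmt1*, at an adjusted p of 0.0882. The call with the block was lost in 4 of the 4 fits that left out 1 number (adjusted p 0.0863 to 0.166 by edgeR). The difference was smallest within number 3, at -0.060, and ran from -0.28 to -0.23 within the other numbers.

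*Uhrf1* and *Dnmt1* act at the same step, so the ratio of their CPM was compared within each sample. The log2 ratio of *Dnmt1* over *Uhrf1* was 0.84, 0.70, 0.85 and 0.85 in DMSO samples 1 to 4 and 1.03, 1.08, 1.14 and 0.997 in IOX5 samples 1 to 4. The groups did not overlap, and the ratio was higher in IOX5 within 4 of 4 numbers. The difference was 0.25 (exact two-sided permutation test over 70 assignments, p = 0.0286, the smallest that 4 samples against 4 allow; 0.0857 after Benjamini-Hochberg adjustment over the 3 ratios compared). The adjusted value did not pass 0.05.

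The de novo methyltransferases did not pass any of the tests run. *Dnmt3a* (ENSMUSG00000020661; chromosome 12, 3806007 to 3914443, plus strand) measured 48.1, 48.2, 45.7 and 44.0 CPM in DMSO samples 1 to 4 and 50.5, 52.5, 52.4 and 47.3 CPM in IOX5 samples 1 to 4. IOX5 sample 4 lay within the DMSO range and the other IOX5 samples lay above it. Within the replicate numbers *Dnmt3a* was higher in IOX5 in 4 of 4, as were 21.3% of all genes tested. The log2 fold change was 0.12 (SE 0.063, 95% interval -0.019 to 0.27; adjusted p = 0.314 by edgeR, 0.221 with the block). *Dnmt3b* (ENSMUSG00000027478; chromosome 2, 153649450 to 153687730, plus strand) measured 23.4, 23.4, 30.2 and 28.4 CPM in DMSO samples 1 to 4 and 23.1, 19.4, 30.8 and 25.4 CPM in IOX5 samples 1 to 4. These values followed the replicate number more than the treatment, with numbers 3 and 4 above numbers 1 and 2 in both groups. The log2 fold change of *Dnmt3b* was -0.095 (SE 0.15, 95% interval -0.44 to 0.25; adjusted p = 0.773 by edgeR). Without IOX5 sample 2 its log2 fold change was 0.0055, the one reversal of direction among the 8 genes.

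The log2 ratio of *Dnmt3a* over *Dnmt3b* was 1.04, 1.04, 0.60 and 0.63 in DMSO samples 1 to 4 and 1.12, 1.44, 0.77 and 0.90 in IOX5 samples 1 to 4. The ratio was higher in IOX5 within 4 of 4 numbers, but the groups overlapped. The difference of 0.23 did not pass the exact permutation test, which ignores the numbers (two-sided p = 0.286, adjusted 0.286). Within numbers 1 to 4 the differences were 0.088, 0.40, 0.17 and 0.26. An exact two-sided test that flips the signs of the 4 differences within numbers gave p = 0.125 for this ratio, for *Dnmt1* over *Uhrf1* and for *Tet2* over *Tet3*, the smallest that 4 numbers allow, so it cannot pass 0.05.

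*Tet2*, a TET dioxygenase without a CXXC domain of its own (ENSMUSG00000040943; chromosome 3, 133463679 to 133545139, minus strand), measured 124.0, 136.6, 130.1 and 150.9 CPM in DMSO samples 1 to 4. IOX5 samples 1 to 4 measured 90.9, 122.3, 103.0 and 98.7 CPM. The groups did not overlap, although IOX5 sample 2 lay just under DMSO sample 1. IOX5 lay at a log2 fold change of -0.38 (SE 0.10, 95% interval -0.61 to -0.16), a decrease of 23.4%, with an adjusted p of 0.0812 by edgeR. The adjusted p was 0.00332 by edgeR with the replicate block, 0.0148 by DESeq2 and 0.0232 by limma voom. In the block fits that each left out 1 number, *Tet2* was called in 4 of 4 (adjusted p 3.47e-05 to 0.0235 by edgeR). Without the block and without IOX5 sample 2, *Tet2* passed the threshold, with an adjusted p of 0.0455 by edgeR.

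*Tet3*, which encodes another TET dioxygenase (ENSMUSG00000034832; chromosome 6, 83362373 to 83459084, minus strand), measured 140.5, 144.0, 141.4 and 157.1 CPM in DMSO samples 1 to 4 and 114.0, 143.4, 139.2 and 109.9 CPM in IOX5 samples 1 to 4. IOX5 samples 1 and 4 were low, and IOX5 samples 2 and 3 were close to the DMSO samples with the same numbers, with differences of -0.0054 and -0.022 in log2 CPM. The log2 fold change was -0.20 (SE 0.097, 95% interval -0.42 to 0.017; adjusted p = 0.284 by edgeR, 0.0889 with the block). In the block fit without number 2, *Tet3* passed the threshold, with an adjusted p of 0.0138 by edgeR. The log2 ratio of *Tet2* over *Tet3* CPM was -0.18, -0.075, -0.12 and -0.059 in DMSO samples 1 to 4 and -0.33, -0.23, -0.43 and -0.15 in IOX5 samples 1 to 4. It was lower in IOX5 within 4 of 4 numbers, and the difference of -0.18 did not pass the exact permutation test (two-sided p = 0.0571, adjusted 0.0857).

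*Tet1* (ENSMUSG00000047146; chromosome 10, 62804570 to 62908996, minus strand) was near the lower end of detection, with 22 to 56 reads per sample. It measured 2.61, 3.66, 3.82 and 4.32 CPM in DMSO samples 1 to 4 and 1.76, 3.46, 2.42 and 3.47 CPM in IOX5 samples 1 to 4. *Tet1* was lower in IOX5 within 4 of 4 numbers, but the groups overlapped. Its log2 fold change was -0.37, with a 95% interval from -0.98 to 0.24 (adjusted p = 0.476 by edgeR). With the block the interval ran from -0.78 to 0.0094 (adjusted p = 0.151). Both intervals hold 0 as well as the log2 fold change found for *Tet2*, -0.38.

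*Tdg*, the glycosylase that removes oxidized methylcytosine (ENSMUSG00000034674; chromosome 10, 82629828 to 82650799, plus strand), measured 60.3, 64.0, 64.0 and 66.6 CPM in DMSO samples 1 to 4 and 48.1, 48.7, 54.2 and 58.9 CPM in IOX5 samples 1 to 4. The groups did not overlap, and the gap was narrowest between IOX5 sample 4 and DMSO sample 1. The log2 fold change was -0.28 (SE 0.077, 95% interval -0.46 to -0.11), a decrease of 17.7%. The adjusted p was 0.0926 by edgeR, 0.0114 with the replicate block, 0.0414 by DESeq2 and 0.0342 by limma voom. The call with the block was kept in 2 of the 4 fits that left out 1 number (adjusted p 0.0134 to 0.0609 by edgeR), and without the block *Tdg* passed the threshold when IOX5 sample 4 was left out, with an adjusted p of 0.0418. The annotated pseudogenes *Tdg-ps* and *Gm9855* held 6 and 23 reads over all 8 samples, against 5849 for *Tdg*. HTSeq by default leaves reads that map to several places out of every gene, and whether *Tdg* lost reads in this way was not tested. Genes on the opposite strand over exons of these genes held few reads, with 2 for *Dnmt3aos*, 5 for *Gm42567* at *Tet2* and 4 for *Glt8d2* at *Tdg*.

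**Figure D3:**
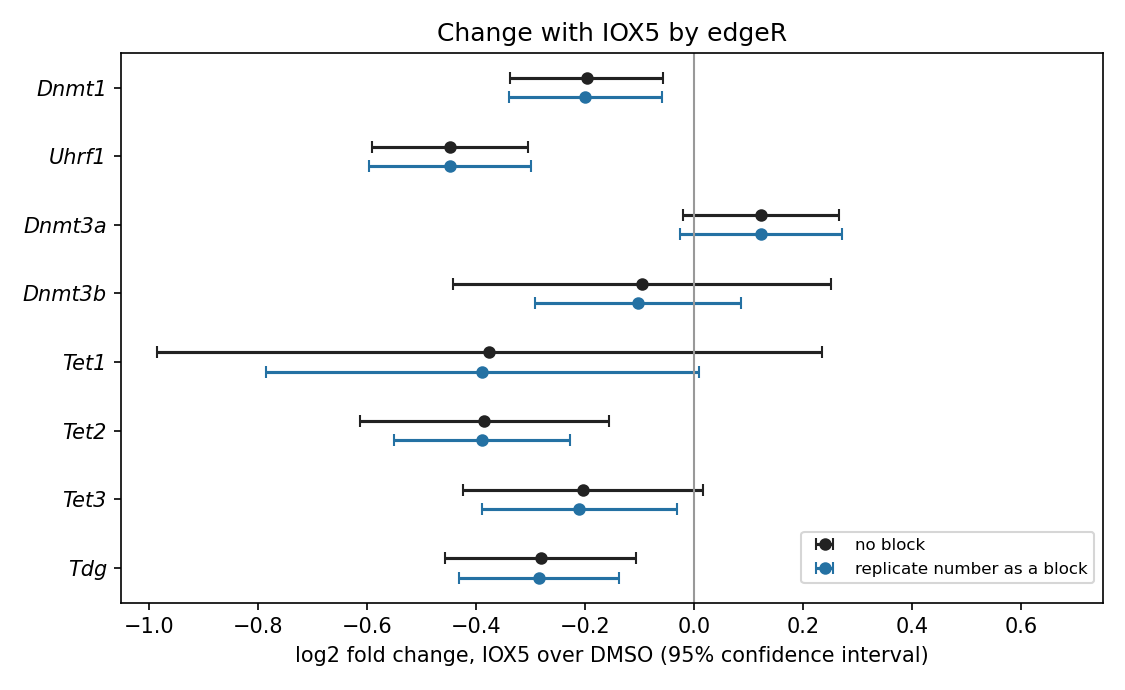
Log2 fold change of IOX5 over DMSO (horizontal axis) for each gene by edgeR, with 95% confidence intervals before adjustment for the number of genes, without a block (black) and with the replicate number as a block (blue). The estimates barely differ between the fits, and the block narrows the intervals of *Dnmt3b*, *Tet1* and *Tet2* most. The interval of *Uhrf1* without the block runs from -0.59 to -0.30.

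How the 8 genes varied within the groups was described by the correlation of their log2 CPM over the 8 samples after each group mean was subtracted. The points share libraries and depth, and no p is given. Over all genes tested, the deviations of same-numbered DMSO and IOX5 samples correlated at 0.636 to 0.758, so the 8 points are not independent. *Tet2* and *Tet3* varied together (Pearson r = 0.81), as did *Dnmt1* and *Dnmt3b* (r = 0.87), while *Uhrf1* was closest to *Tdg* (r = 0.74) and *Dnmt3a* ran opposite to *Tdg* (r = -0.65). Among 7505 genes with a mean of at least 20 CPM, the pattern most like that of *Uhrf1* was that of *Gart*, an enzyme of purine synthesis (r = 0.98), followed by *Kpnb1*, a nuclear import receptor (r = 0.97). The top of a search over 7505 genes and 8 points is high by selection. *Tet1*, with 22 to 56 reads per sample, also reached r = 0.97, so the nearest genes are description and shared regulation was not tested. *Kpnb1* was itself lower in IOX5 by edgeR (log2 fold change -0.39; adjusted p = 0.0346, a call lost with no filter and in 7 of the 8 fits that left out 1 sample), and *Gart* had -0.28 (adjusted p = 0.0773). The nearest patterns were *Dync1li1* and *Eif4enif1* for *Dnmt1*, *Sec31a* and *Zfp407* for *Dnmt3a*, *Frmd4a* and *Orc1* for *Dnmt3b*, *Tma16* and *Slc25a15* for *Tet1*, *Nlrp3* and *Tmem87b* for *Tet2*, *Arhgap23* and *Nsd3* for *Tet3*, and *Wdr18* and *Rmdn3* for *Tdg*, with r between 0.960 and 0.998.

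Promoter sequence is shown for *Uhrf1*, *Tet2* and *Tdg*, the genes that were lower by DESeq2, limma voom and the block fit alike. The windows hold the 250 bases before the RefSeq start nearest to the annotated gene start, shortened where an annotated exon of the gene begins, and are written 5′ to 3′ on the strand of the gene. Capitals mark the core words of the hypoxia response element, ACGTG and GCGTG, on either strand.
Uhrf1, GRCm38.p6 chr17:56303087-56303320, plus strand: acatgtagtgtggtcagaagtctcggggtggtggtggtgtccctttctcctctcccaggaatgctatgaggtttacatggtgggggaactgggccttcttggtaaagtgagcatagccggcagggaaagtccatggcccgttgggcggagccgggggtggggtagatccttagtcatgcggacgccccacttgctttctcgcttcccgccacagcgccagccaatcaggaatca
Tet2, GRCm38.p6 chr3:133544391-133544640, minus strand: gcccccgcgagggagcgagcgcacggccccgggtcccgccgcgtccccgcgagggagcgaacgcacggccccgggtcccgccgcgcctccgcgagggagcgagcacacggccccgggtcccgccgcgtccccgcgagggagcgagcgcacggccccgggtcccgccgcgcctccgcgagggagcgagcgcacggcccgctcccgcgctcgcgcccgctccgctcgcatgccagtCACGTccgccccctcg
Tdg, GRCm38.p6 chr10:82629588-82629827, plus strand: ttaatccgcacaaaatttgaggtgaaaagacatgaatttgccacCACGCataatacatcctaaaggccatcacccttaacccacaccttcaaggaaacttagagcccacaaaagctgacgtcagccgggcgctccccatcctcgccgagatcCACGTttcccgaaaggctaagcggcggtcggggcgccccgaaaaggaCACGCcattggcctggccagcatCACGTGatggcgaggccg
A HIF word stood in 38.6% of the 32851 windows of all genes and in the windows of 2 of the 8 genes. *Tet2* had 1, which begins 16 bases before the start, and *Tdg* had 5 matches, a pair of which are both strands of the E-box word CACGTG, found in 6.02% of all windows. The *Uhrf1* window had none. Searched on both strands, the E2F words TTTGGCGC, TTTCCCGC, TTTGCCGC and TTTCGCGC occurred in 1.86% of all windows and in 0 of the 8. The number of CpG dinucleotides in the 250 bases was 51 for *Tet2*, 38 for *Dnmt3a*, 21 for *Dnmt3b*, 19 for *Tdg*, 17 for *Tet3*, 15 for *Tet1*, 10 for *Uhrf1* and 2 for *Dnmt1*, against a median of 6 over all windows. These counts rest on the window used, which was the one nearest to the annotated gene start among 3 for *Dnmt1* and *Dnmt3a* and 2 for *Uhrf1*. Which start these cells used was not tested, so the counts of words and CpG need not describe the promoter in use, as for *Dnmt1*. The starts used for *Tet1* and *Tet3* lie 21672 and 17406 bases inside the annotated gene. Those used for *Dnmt3a* and *Tet2* lie 973 and 749 bases inside it. Binding and methylation at these windows were not measured.

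The partners and neighbors of the 8 genes in the pathway were described by 9 lists of 78 genes, of which 69 were tested. By edgeR, 2 of the 69 were lower, beside 1.25% of all genes tested, and 0 were higher, beside 0.774%. With the replicate block 16 of the 69 were lower, beside 9.43% of all genes, and 4 were higher, beside 11.2%. These shares over all genes are also the background of the single lists. At an unadjusted p under 0.05, 14 of the 69 were lower and 2 higher, where 11.2% and 8.98% of all genes tested were. DESeq2 called 8 lower, beside 4.85% of all genes (*Usp7*, *Lig1*, *Nsd2*, *Setd2*, *Lig3*, *Mat2a*, *Ahcy* and *Mtap*), and *Kdm2a* higher, beside 3.94%. Limma voom called 6 of these lower, all but *Usp7* and *Setd2*, beside 4.92%, and *Kdm2a* higher, beside 3.43%. The median log2 fold change was -0.029, beside 0.017 over all genes tested.

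Of 10 partners of maintenance methylation, 0 were called by edgeR and 4 were lower with the block, with a list median of -0.052. At an unadjusted p under 0.05, 3 were lower. *Lig1*, the ligase that joins replicated fragments, measured 182, 201, 176 and 168 CPM in DMSO samples 1 to 4 and 142, 135, 132 and 160.1 CPM in IOX5 samples 1 to 4. The groups did not overlap (log2 fold change -0.35; adjusted p = 0.0606 by edgeR, 0.00711 with the block). *Usp7*, a deubiquitinase that stabilizes UHRF1 and DNMT1, had -0.20 (adjusted p = 0.113 by edgeR, 0.0491 with the block). *Hells* and *Cdca7*, which form a remodeling complex needed for methylation of heterochromatin, were the other genes lower with the block (adjusted p = 0.00786 and 0.0304 by edgeR). *Pcna*, the sliding clamp that also binds DNMT1, had -0.044 and *Uhrf2*, the paralog of *Uhrf1*, had 0.12, and neither passed with the block. When 1 number was left out of the block fit, *Lig1* and *Hells* kept their calls in 3 of 4 fits (lost without number 3, adjusted p = 0.0585 and 0.0557 by edgeR). *Usp7* and *Cdca7* kept theirs in 1 of 4, the fit without number 4, with an adjusted p by edgeR of up to 0.169 and 0.103 in the others.

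Of 10 partners of de novo methylation, 9 were tested. *Nsd2*, a histone H3K36 dimethyltransferase whose mark guides DNMT3A, was lower by edgeR, with 251, 270.0, 278 and 283 CPM in DMSO samples 1 to 4 and 196, 197, 224 and 209.7 CPM in IOX5 samples 1 to 4. Its groups did not overlap (log2 fold change -0.39, SE 0.066; adjusted p = 0.0286 by edgeR, 0.00113 with the block). Without the block the call was lost with no filter (adjusted p = 0.0531) and in 7 of the 8 fits that left out 1 sample, in which the adjusted p ran from 0.0361 to 0.132. The other writers of H3K36 methylation in the list, *Setd2* (-0.35; adjusted p = 0.0953 by edgeR, 0.00354 with the block) and *Nsd1* (-0.24; 0.133 and 0.0294), were lower with the block, as was *Trim28*, a corepressor at imprinted regions (-0.24; 0.154 and 0.0331). *Nsd2* and *Setd2* were called in 4 of the 4 block fits that left out 1 number, and *Nsd1* and *Trim28* in 1 of 4, with an adjusted p by edgeR of up to 0.102 and 0.145. At an unadjusted p under 0.05, 4 were lower and 0 higher. The list median was -0.090. *Dnmt3l*, the catalytically inactive cofactor of the de novo enzymes, measured 6.41 to 13.2 CPM over the 8 samples (adjusted p = 0.822 by edgeR).

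Of 10 partners of the TET enzymes, 7 were tested, of which 2 had a log2 fold change below 0. By edgeR 0 were called and 2 were higher with the block, with a list median of 0.15. At an unadjusted p under 0.05, 0 passed without the block. *Cebpa*, a myeloid transcription factor, measured 112, 69.0, 139 and 140.3 CPM in DMSO samples 1 to 4 and 154, 110.4, 208 and 178 CPM in IOX5 samples 1 to 4. It was higher in IOX5 within each number, although the groups overlapped (log2 fold change 0.50; adjusted p = 0.299 by edgeR, 0.000401 with the block). *Ogt*, the O-GlcNAc transferase that binds TET proteins, had 0.23 (adjusted p = 0.348 by edgeR, 0.0801 with the block). *Cxxc5*, which holds a CXXC domain that can bring TET2 to DNA, was the other gene higher with the block (adjusted p = 0.0143). In the block fits that left out 1 number, *Cebpa* was called in 4 of 4 and *Cxxc5* in 2 of 4, the latter lost without number 1 or 3 (adjusted p = 0.0520 and 0.137 by edgeR). Of 5 genes of 2-hydroxyglutarate metabolism, 0 were called by edgeR with or without the block, and 0 at an unadjusted p under 0.05. *Idh1*, the cytosolic isocitrate dehydrogenase, had 0.13 (adjusted p = 0.285 by edgeR) and *D2hgdh*, which degrades D-2-hydroxyglutarate, had 0.22 (adjusted p = 0.300).

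Downstream of TDG, base excision repair had 13 of 14 genes tested. *Lig3*, the ligase that works with XRCC1, was lower by edgeR, with 85.6, 93.0, 83.8 and 92.2 CPM in DMSO samples 1 to 4 and 71.8, 63.7, 75.5 and 69.6 CPM in IOX5 samples 1 to 4 (log2 fold change -0.34, SE 0.069; adjusted p = 0.0485). The call was lost with RLE factors (adjusted p = 0.0563), upper-quartile factors (0.0583) and no filter (0.103), and in 8 of the 8 fits of edgeR that left out 1 sample (0.0569 to 0.168). With the block, 5 of the 13 were lower, namely *Lig3*, *Ung*, *Apex1*, *Parp1* and *Fen1*, and 0 were higher. *Ung*, the uracil glycosylase, had the largest decrease of these (log2 fold change -0.38; adjusted p = 0.166 by edgeR, 0.0366 with the block). In the block fits that left out 1 number, *Lig3* was called in 4 of 4, *Ung* in 2 of 4 (lost without number 1 or 2, adjusted p = 0.149 and 0.0912 by edgeR), and *Apex1*, *Parp1* and *Fen1* in 1 of 4 each, the fit without number 4. At an unadjusted p under 0.05, 4 of the 13 were lower and 1 was higher. The higher gene was *Neil1*, a glycosylase of oxidized bases, at 2.57 to 4.40 CPM in DMSO and 4.68 to 6.01 CPM in IOX5, without overlap (log2 fold change 0.49; adjusted p = 0.216 by edgeR, 0.0534 with the block). *Xrcc1* (0.074) and the repair polymerase *Polb* (0.098) did not pass.

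The supply of methyl groups was described by 11 genes of the S-adenosylmethionine cycle, of which 9 were tested and 0 called by edgeR, with 3 lower at an unadjusted p under 0.05. With the block, 3 were lower and 0 higher. *Mat2a*, which makes S-adenosylmethionine, measured 360.1, 357, 379 and 413 CPM in DMSO samples 1 to 4 and 299, 248, 294 and 356 CPM in IOX5 samples 1 to 4 (log2 fold change -0.34; adjusted p = 0.126 by edgeR, 0.00409 with the block). *Ahcy*, which clears the product S-adenosylhomocysteine (-0.29; 0.0980 and 0.0102), and *Mtap*, of methionine salvage (-0.36; 0.0873 and 0.00791), were the others. In the block fits that left out 1 number, *Mat2a* and *Ahcy* were called in 4 of 4, and *Mtap* in 3 of 4 (adjusted p = 0.0504 by edgeR without number 3). The 9 readers of methylated CpG had a median of 0.054, with 0 called by edgeR, 0 at an unadjusted p under 0.05, and *Zbtb4* higher with the block (log2 fold change 0.94; adjusted p = 0.319 by edgeR, 0.00496 with the block) at 0.927 to 6.01 CPM. Of 5 CXXC proteins of unmethylated CpG islands, 0 were called by edgeR and *Fbxl19* was higher with the block (0.34; adjusted p = 0.253 by edgeR, 0.00695 with the block, lost at 0.0536 without number 3), and *Kdm2a* had 0.16 (adjusted p = 0.147 by edgeR, 0.0924 with the block, 0.0217 by DESeq2 and 0.0479 by limma voom). *Kdm2a* was the 1 gene of the list that was higher at an unadjusted p under 0.05 and higher without overlap between the groups. Of 4 cytidine deaminases, *Apobec1* and *Apobec3* were tested, with log2 fold changes of 0.059 and -0.10 (adjusted p = 0.879 and 0.705 by edgeR), and 0 passed an unadjusted p under 0.05.

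**Figure D4:**
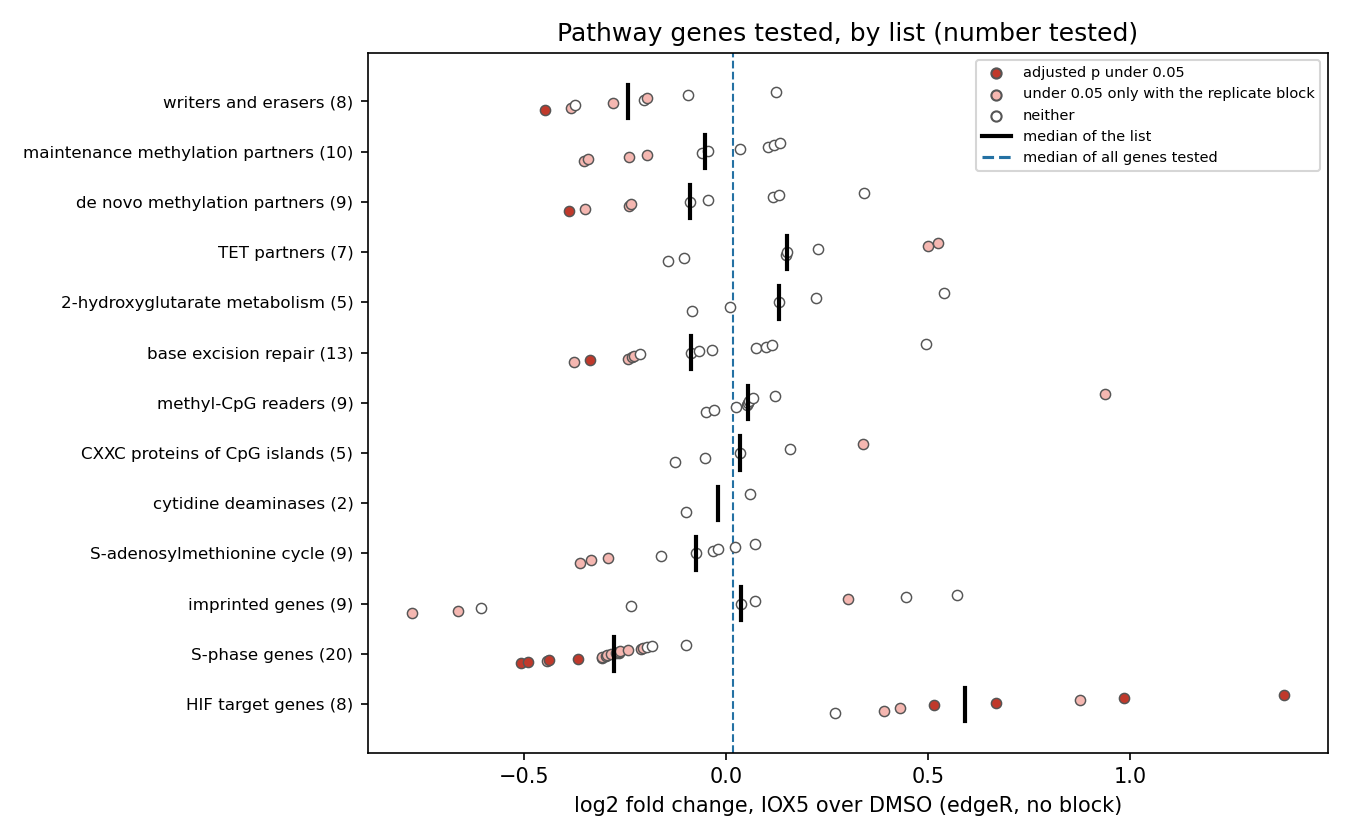
Log2 fold change of IOX5 over DMSO by edgeR without a block (horizontal axis) for every tested gene of each list, with the number tested in parentheses. Filled red points passed an adjusted p under 0.05, pale points passed with the replicate block alone, black ticks give the list median and the dashed line gives the median of all genes tested, 0.017. The median of the 8 writers and erasers, -0.24, lies near that of the S-phase genes, -0.28.

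Genes that depend on DNA methylation for silencing were listed as a readout. Of 14 germline genes, 9 were at 0 reads in every sample and 0 passed the filter on low counts, so none could be compared. Of 20 imprinted genes, 9 were tested and 0 were called by edgeR, with 1 lower and 1 higher at an unadjusted p under 0.05, while the block called 2 lower, beside 9.43% of all genes, and 1 higher, beside 11.2%. *Kcnq1ot1*, the imprinted antisense transcript of the *Kcnq1* locus, measured 41.1, 38.8, 59.4 and 64.7 CPM in DMSO samples 1 to 4 and 31.4, 28.2, 30.1 and 29.1 CPM in IOX5 samples 1 to 4. The groups did not overlap, and the decrease was larger in numbers 3 and 4 (log2 fold change -0.78, SE 0.17; adjusted p = 0.0517 by edgeR, 0.000842 with the block, 0.00101 by DESeq2 and 0.0217 by limma voom). *Zrsr1* was higher with the block (0.30; adjusted p = 0.219 by edgeR, 0.0475 with the block) and *Peg10* lower (-0.66; 0.401 and 0.0323). In the block fits that left out 1 number, *Kcnq1ot1* was called in 4 of 4, *Zrsr1* in 0 of 4 (adjusted p 0.0657 to 0.193 by edgeR) and *Peg10* in 1 of 4, the fit without number 2 (up to 0.114 in the others). With no filter, edgeR without the block called *Kcnq1ot1* lower, with an adjusted p of 0.0405.

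S-phase genes were compared in the same way. *Uhrf1* and *Dnmt1* are expressed mainly in replicating cells, and in a list of 20 S-phase genes the median log2 fold change was -0.28, with 20 of 20 below 0, as were 47.2% of all genes tested. By edgeR 4 of the 20 were lower (*Rrm2*, *Cdt1*, *Mcm4* and *Cdc6*), beside 1.25% of all genes, and 0 higher, and with the block 17 were lower, beside 9.43%. *Rrm2*, a subunit of ribonucleotide reductase, had -0.51 (adjusted p = 0.0294) and *Cdt1*, which licenses origins, had -0.44 (adjusted p = 0.0331). In the 8 fits of edgeR that left out 1 sample, *Rrm2* was called in 2 and each of the other 3 in 1, and with no filter the call of *Mcm4* was lost (adjusted p = 0.0810). The summed CPM of the list was 4558, 4765, 4815 and 4813 in DMSO samples 1 to 4 and 3767, 3417, 3991 and 4270.2 in IOX5 samples 1 to 4. IOX5 sample 2, the lowest of these, was also the lowest in *Uhrf1* and *Dnmt1* but was the highest IOX5 sample in *Tet2* and *Tet3*. In bulk samples, fewer cells in S phase and less RNA per cell cannot be told apart, and the part of S-phase genes in the results for *Uhrf1*, *Dnmt1* and *Tdg* was not tested.

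HIF target genes, the readout of PHD inhibition, were described as well. The list was chosen with earlier results of these data known, and the study reported *Bnip3* as raised by IOX5. It is therefore not an independent check of the treatment. Of 8, 4 were higher by edgeR (*Ankrd37*, *Pdk1*, *Egln1* and *Bnip3*), beside 0.774% of all genes, and 7 with the block, beside 11.2%, with a median log2 fold change of 0.59. In the 8 fits that left out 1 sample, *Ankrd37* and *Pdk1* were each called in 5, and *Egln1* and *Bnip3* each in 1. Their summed CPM was 784, 525, 696 and 703 in DMSO samples 1 to 4 and 1101, 1044, 1122 and 1133 in IOX5 samples 1 to 4, without overlap.

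Marker genes of blood lineages and of stroma were summed by sample. The summed CPM of 6 macrophage genes was 210.2, 222.8, 163 and 192 in DMSO samples 1 to 4 and 258, 535, 271 and 245 in IOX5 samples 1 to 4, with IOX5 sample 2 far above the rest. *Csf1r* was the most abundant of them, with a mean of 83.4 CPM in DMSO and 107 CPM in IOX5. Of the 5 macrophage genes tested, 0 were called by edgeR, 3 were higher at an unadjusted p under 0.05, beside 8.98% of all genes, and 3 with the block, beside 11.2%. These were *Adgre1*, *Mrc1* and *Cd14*, which DESeq2 also called higher, beside 3.94% of all genes, while limma voom called *Adgre1* and *Mrc1*, beside 3.43%. In *Adgre1* and *Cd14* the groups did not overlap. The summed CPM of 6 mast cell and basophil genes was 207, 159, 587 and 532 in DMSO samples 1 to 4 and 257, 318, 945 and 754 in IOX5 samples 1 to 4, led by *Mcpt8*, and 6 of 6 were higher with the block, where 11.2% of all genes were. That of 8 granulocyte genes, led by *Mpo*, was 3581, 3571, 5768 and 5107 in DMSO samples 1 to 4 and 4011, 4503, 6494 and 6433 in IOX5 samples 1 to 4, and 6 of 8 were higher with the block, beside the same 11.2%. No gene of these 3 lists was called by edgeR without the block, and of the mast cell, basophil and granulocyte genes 0 were called by DESeq2 or limma voom and 0 passed an unadjusted p under 0.05 by edgeR. Erythroid genes, led by *Hbb-bt*, summed to 18.6, 3.97, 7.47 and 10.3 CPM in DMSO samples 1 to 4. In IOX5 samples 1 to 4 they summed to 26.8, 6.04, 14.5 and 19.6 CPM. Megakaryocyte genes, led by *Itga2b*, summed to 43.8, 15.8, 61.7 and 60.0 CPM in DMSO samples 1 to 4. Their sums in IOX5 samples 1 to 4 were 62.2, 34.7, 107 and 86.8 CPM. The 3 tested genes of each list were higher within 4 of 4 numbers, beside 21.3% of all genes. By edgeR 0 were called, and with the block 1 and 2 were higher, beside 11.2%. At an unadjusted p under 0.05, 0 and 1 were higher, beside 8.98%. B cell genes, led by *Cd79b*, summed to at most 8.56 CPM and T cell genes to at most 0.162 CPM in any sample. Stromal and endothelial genes were led by *Pecam1*, which blood cells also express. They summed to 164, 83.9, 164 and 162 CPM in DMSO samples 1 to 4. In IOX5 samples 1 to 4 the sums were 218, 132, 219 and 193 CPM. Of 2 tested, 0 were called by edgeR and 1 was higher with the block, beside 11.2% of all genes. The part of these cell types in the results for the 8 genes was not tested.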

How the data were processed

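RNA-seq was measured in 4 DMSO and 4 IOX5 samples, grouped by the labels. The authors selected poly(A) RNA, prepared directional libraries and sequenced single-end reads. Per the submitters' processing notes, the tools were cutadapt 1.18, HISAT2 2.2.1 and HTSeq 2.0.1, and the build was GRCm38. The deposited values are raw counts per Ensembl gene, made by the authors sample by sample and not normalized. The methods name the release of the HISAT2 index but not that of the GTF used for counting. Strand was resolved, since *Xist* held 105071 reads and the antisense *Tsix* 21. Of 54838 genes, 54809 were matched to GENCODE M21. The 5 summary lines of each table (20.6% to 22.6% of reads) were left out.

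Counts were analyzed in R 4.3.3. Genes were kept by filterByExpr (12405 genes), scaled by TMM and tested with the quasi-likelihood test of edgeR 4.0.16 without a block, with Benjamini-Hochberg adjustment over all genes tested and a threshold of 0.05. The common biological coefficient of variation was 0.202. Log2 CPM used a prior count of 2. Ratios of 2 genes were compared by exact two-sided permutation. RPKM used GENCODE M21 exon lengths. The deviations of same-numbered DMSO and IOX5 samples from their group means correlated at 0.758, 0.744, 0.732 and 0.636 for numbers 1 to 4, so the numbers were taken to pair the samples. Across numbers, DMSO sample 4 correlated with IOX5 sample 3 at 0.685 and DMSO sample 3 with IOX5 sample 4 at 0.617, so numbers 3 and 4 were not told apart. The alternatives were the replicate block, DESeq2 1.42.0 (named for differential expression in the study's methods), limma 3.58.1 voom, other scaling factors and filters, and samples left out; a block with numbers 3 and 4 as 1 level and sign flips of the ratios within numbers were added after seeing the data. The block with numbers 3 and 4 as 1 level kept all 8 samples and did not merge any. Tests ran on simulated data first. Promoter windows came from RefSeq (GRCm38.p6), with 8 of 8 genes matched.

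The 8 genes and the 22 other lists were chosen with earlier results of these data known. The genes named are the 8; in each list, those called and the 2 with the smallest unadjusted p (in marker lists, the most abundant and those at 0); and the 2 genes nearest in pattern to each of the 8. A few genes that this rule names are not reported here. Other genes, such as those called with the block, *Cd34* and *Pcna*, were named after their values were seen.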

Additional observations from a re-analysis of the deposited data

Results flagged for a closer look

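*Apobec1*, a cytidine deaminase of the pathway lists, stood apart in 1 sample. IOX5 sample 2 measured 29.1 CPM, while the other IOX5 samples lay between 17.3 and 19.1 CPM, a gap of 0.843 of the range of the group, which is past Dixon's 95% limit for 4 samples. It was 1 of 72 groups of 4 samples examined in this way, of which chance would set apart about 1 in 20. The same sample had the highest summed CPM of macrophage genes, at 535.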

How the results depend on the processing

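Of the log2 fold changes of the 8 genes under the alternatives, 159 of 160 kept their direction. The exception was *Dnmt3b*, at 0.0055 without IOX5 replicate 2. *Apobec1* reversed to -0.043 with limma voom and -0.14 without IOX5 replicate 2 (range up to 0.14 with 1 sample left out), and to -0.12 with the replicate block without replicate 2. The cause of each change below was not tested.

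The count of the 8 genes called lower, 1 without a block, was 4 with the replicate block, 4 with DESeq2, 3 with limma voom and 4 with a block of numbers 3 and 4 as 1 level. It ran from 0 to 2 when 1 sample was left out, and came to 2, 4, 2 and 3 in block fits without number 1, 2, 3 or 4. Calls over all genes, 155 lower and 96 higher, came to 1170 and 1394 with the replicate block, 602 and 489 with DESeq2, 610 and 426 with limma voom and 1216 and 1438 with numbers 3 and 4 as 1 level. Without a filter, 73 were lower. Leaving out 1 sample gave 0 to 333 lower and 0 to 130 higher, and block fits without number 1, 2, 3 or 4 gave 650, 1016, 403 and 1058 lower and 994, 1119, 642 and 1355 higher. In the edgeR fits with 0 calls, without DMSO sample 3, DMSO sample 4 or IOX5 sample 3, 1969, 1846 and 2111 genes had an unadjusted p under 0.05.

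Of the 69 pathway genes tested, 2 were lower and 0 higher, against 16 and 4 with the replicate block, 8 and 1 with DESeq2, 6 and 1 with limma voom, and 15 and 5 with numbers 3 and 4 as 1 level. Lower calls were 1 with RLE factors, 1 with upper-quartile factors and 0 with no filter. They ran from 0 to 7 when 1 sample was left out and came to 8, 9, 6 and 15 in the block fits without number 1, 2, 3 or 4, where higher calls were 3, 4, 2 and 7. S-phase genes called lower, 4 of 20, were 17 with the replicate block, 11 with DESeq2, 10 with limma voom and 17 with numbers 3 and 4 as 1 level. They ran from 0 to 9 when 1 sample was left out and came to 10, 12, 5 and 17 in the same 4 block fits.

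With the longest transcript as length, the DMSO mean was 87.4 RPKM for *Dnmt1*, 4.80 for *Dnmt3a*, 6.10 for *Dnmt3b*, 81.5 for *Uhrf1*, 14.7 for *Tet2*, 13.4 for *Tet3* and 18.2 for *Tdg*. The differences in log2 ratio ran from 0.21 to 0.27 for *Dnmt1* over *Uhrf1*, from -0.22 to -0.13 for *Tet2* over *Tet3* and from 0.10 to 0.33 for *Dnmt3a* over *Dnmt3b* when 1 sample was left out. Without IOX5 sample 4, the first 2 of these passed the exact permutation test after adjustment (adjusted p = 0.0429). Exact sign flips within numbers gave p = 0.125 for each ratio, the smallest possible, so they could not pass 0.05.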

Other observations

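*Igf2r*, an imprinted receptor gene singled out after its values were seen, separated the replicate numbers and not the treatments. It measured 49.8, 72.7, 4.55 and 5.33 CPM in DMSO samples 1 to 4 and 38.4, 92.4, 5.39 and 3.56 CPM in IOX5 samples 1 to 4. Numbers 3 and 4 were low in both groups, without overlap with numbers 1 and 2. The log2 fold change with IOX5 was 0.072 (adjusted p = 0.981 by edgeR). Other imprinted genes differed between numbers in other ways. *Grb10*, an adaptor of growth factor receptors, measured 3.34 CPM in DMSO sample 2 and 3.73 CPM in IOX5 sample 2, against 5.08 to 27.1 CPM in the other samples. *Meg3*, an imprinted noncoding RNA below the filter on low counts, measured 6.42 CPM in DMSO sample 1 and at most 1.12 CPM in the other samples.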
